A study of Mus musculus with 2 samples.

Results

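The cells described here carry transcripts of Cd209a, a C-type lectin gene used as a marker of conventional type 2 dendritic cells (cDC2) and of monocyte-derived dendritic cells, and were 77 of the 10720 cells sequenced from mouse MC38 tumours. They were chosen by raw UMIs (unique molecular identifiers, counted transcripts): at least 1 UMI of Cd209a, at least 3 of the MHC class II gene H2-Ab1, 0 of Ccr7, at most 1 of Xcr1 and Clec9a together, at most 4 of C1qa, C1qb and C1qc together, at most 2 of Arg1, and 0 of Cd3d, Cd3e, Cd3g and Cd79a. The DFMO library held 18 of them among 4472 cells and the water library 59 among 6248. These genes made the choice, so their values below are descriptions. The cells carried Cd209a, class II genes and Cd7 but little Flt3, and monocyte genes as well, and 15 of the 77 also carried genes of a tumour epithelium and fibroblast list. The name cDC2 was thus borne out in part only, and they are called Cd209a+ cells from here on.

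MC38 is a mouse colon carcinoma line, here grown in the back of C57BL/6 mice. From day 7 after implantation the mice were given water, or DFMO (difluoromethylornithine, an inhibitor of ornithine decarboxylase) by gavage for 14 days; the labels differ on how often per day. No other genotype, allele or agent is named, so both groups share the strain, the tumour line and the gavage. After a Ficoll step for immune cells, the cells of 4 mice were pooled within each group into 1 single-cell 5' library, so there was no replicate error, and no difference between groups or cell populations was tested. Levels are CPM, a gene's UMIs over all UMIs of the summed cells scaled to 1000000, all intervals are 95% intervals, and every interval covers counting error only.

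Conventional dendritic cells take up antigen and present it to T cells. Type 1 cells (cDC1, marked by Xcr1 and Clec9a) depend on the transcription factor Irf8 and are known for cross-presentation to CD8 T cells, and type 2 cells are known for class II presentation to CD4 T cells. Both arise under Flt3, the receptor of the dendritic cell growth factor Flt3 ligand, and express Zbtb46. In tumours, monocytes can also take on class II genes and Cd209a, and such cells keep monocyte genes such as Lyz2, Ccr2 and Fcgr1.

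Cd209a is 1 of a cluster of related lectin genes, and the choice of cells rests on reads that tell it from its relatives. The first 90 coding bases of Cd209a (chr8:3743397-3748984, minus strand, GENCODE M21 on mm10) and of its neighbour Cd209d (chr8:3871824-3878555, minus strand) are shown with capitals at the bases that differ in the alignment of the 2 coding sequences.
Cd209a: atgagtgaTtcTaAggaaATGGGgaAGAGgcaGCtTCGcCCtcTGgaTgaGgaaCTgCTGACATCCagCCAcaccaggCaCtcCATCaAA
Cd209d: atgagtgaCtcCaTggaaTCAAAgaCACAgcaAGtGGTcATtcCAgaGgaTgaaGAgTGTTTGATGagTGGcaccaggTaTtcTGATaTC
Of these 90 bases, 45 differed. Over the whole coding sequences, 469 of 721 aligned columns were identical (65.0%), and 0 of the 31-base words of Cd209a occurred in transcripts of another gene. For other genes used below the sharing was larger, at 43.1% of the 31-base words of Ass1, 32.8% of Lyz2 (with Lyz1), 14.8% of Clec10a (with Mgl2), 54.9% of Tagap and 31.3% of Odc1, so their counts could hold reads of near copies.

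The libraries differed in depth and make-up. The DFMO library held 23588037 UMIs with a median of 2232 per cell, and the water library 59748244 with a median of 6475. Among Cd209a+ cells the medians were closer, at 6064.5 UMIs (range 3360 to 30202) in DFMO and 5352 (1509 to 31112) in water. The libraries shared 37 cell barcodes, none of them of a Cd209a+ cell. Scrublet called 51 DFMO cells (1.14%) and 97 water cells (1.55%) as doublets, 2 Cd209a+ cells among them.

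**Figure D1:**
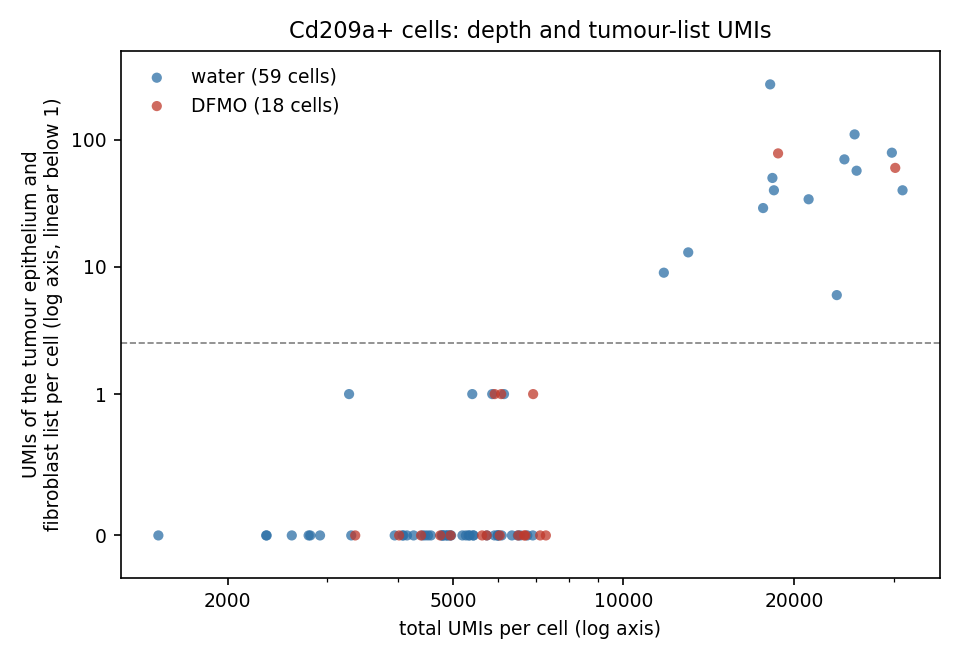
Total UMIs of each of the 77 Cd209a+ cells (horizontal, log axis) against its UMIs of the tumour epithelium and fibroblast list (vertical, log axis, linear below 1); points are cells, colours are libraries, and the dashed line separates cells with at least 3 list UMIs. The 62 cells under the line have at most 7295 UMIs and the 15 above it at least 11786.

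The Cd209a+ cells fell into 2 sets that did not overlap in depth or in raw UMIs of tumour genes. Of these, 62 cells (16 DFMO, 46 water) had 1509 to 7295 UMIs and at most 1 UMI of a list of 13 tumour epithelium and fibroblast genes, and 7 of these cells held that 1 UMI. The other 15 cells (2 DFMO, 13 water) had 11786 to 31112 UMIs and 6 to 272 UMIs of the list. Relative to depth the sets did overlap: 1 of the 15 held 6 list UMIs in 23812, and 1 of the 62 held 1 in 3277. These 15 held 34.7% of the Cd209a+ cells' UMIs in DFMO and 56.0% in water, and 2 of them were the Scrublet calls.

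The 15 deep cells carried genes of both kinds. Sparc, a matrix protein gene, was found in 15 of 15 (median 17 UMIs, range 2 to 62) against 3 of 62. It belongs to the list that split the cells, so this contrast describes the split. The tetraspanin gene Cd63, not on that list, was found in 15 of 15 (median 34) against 4 of 62. The proliferation gene Mki67 was found in 11 of 15 and in 0 of 62. The keratin genes Krt8 and Krt18 were at 0 UMIs in both sets, and Col1a1 in 1 cell. The leukocyte side was present as well: Tyrobp, an adaptor of myeloid receptors, was found in 14 of 15 (median 18 UMIs, against 24 in the 62), Ptprc, the gene of CD45, in 8 of 15 against 45 of 62, and Cd74, the class II invariant chain, had medians of 153 and 138. Of Cd209a itself the deep cells held a median of 4 UMIs (1 to 17) and the 62 a median of 7.5 (1 to 51). Each main value below covers all 77 cells, and the value of the 62 is given beside it where it differs; the part of the 15 cells in a result was not tested otherwise.

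By share of all cells, Cd209a+ cells were 0.403% (interval 0.239 to 0.635) in DFMO and 0.944% (0.720 to 1.22) in water. With every cell of at least 2000 UMIs thinned to that depth before the rule, the shares were 0.620% and 0.793%. Among cells with a Ptprc UMI they were 10 of 2585 (0.387%) and 43 of 2239 (1.92%). Tumour-list cells (at least 3 UMIs) made up 15.3% of all DFMO cells and 48.4% of water cells, and B cells by rule were 1307 and 54, so the denominators held different cells. Among dendritic cells alone, that is Cd209a+ cells, cDC1 and Ccr7+ dendritic cells by their rules, they were 18 of 39 (46.2%, 30.1 to 62.8) and 59 of 155 (38.1%, 30.4 to 46.2), with intervals that overlapped. The Ficoll step and limits on cells before deposit act on these shares, which are not shares of the tumours.

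Most limits of the rule excluded few cells. Of the Cd209a+ cells, 11 stood at the limit of 1 Cd209a UMI, and the median was 6 and the highest 51. With all other conditions met, 334 cells had 0 Cd209a UMIs. For H2-Ab1, 1 cell stood at the limit of 3 (median 23, highest 119) and 20 cells failed by this condition alone, with 0 to 2 UMIs. The other conditions that alone excluded cells were Cd3 genes (13 cells, 1 to 84 UMIs), Xcr1 and Clec9a (6 cells, 2 to 6 UMIs) and Cd79a (5 cells, 11 to 19 UMIs). The limits on Ccr7, complement and Arg1 alone excluded 0 cells. A Cd209a UMI occurred in 13 of 3101 T cells (0.419%, median 2479 UMIs per cell) and in 6 of 1442 B cells (0.416%, median 1825).

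Class II genes were higher in these cells than in monocytes. The rule asked for H2-Ab1 here and not of the monocytes (chosen by Ly6c2 and Csf1r without Cd209a), and class II genes share their control, so these levels describe the choice of cells. The DFMO cells held 3678 CPM of H2-Ab1 (3368 to 4009) and the water cells 3921 (3749 to 4099), and the 62 cells held 5394 and 6869. The alpha chain gene H2-Aa stood at 5911 and 6391 CPM, against 868 and 1002 in monocytes and 12578 and 13036 in cDC1. Cd74 stood at 21367 and 20247 CPM, against 3892 and 3691 in monocytes and 33721 and 39414 in cDC1. C1q-rich macrophages had 20632 and 17393 CPM of Cd74. All 77 cells thus lay between monocytes and cDC1 for these genes and near the macrophages, but the 62 cells held 31189 and 34503 CPM of Cd74 and 8736 and 10995 of H2-Aa. With tumour-list cells left out of each population, cDC1 had 36118 and 40707 CPM of Cd74 and C1q macrophages 24673 and 20641, so the 62 cells stood above the macrophages for Cd74. H2-DMb1, a chain of the peptide exchange factor H2-DM, was found in 62 of 62 cells and stood at 1247 and 1095 CPM, near cDC1 (1198 and 1402) and above monocytes (291 and 313), though 31.4% of its 31-base words occur in other genes. The 62 cells held 1845 and 2082 CPM of it.

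Genes of the dendritic cell lineage were sparse. Flt3 gave 9 UMIs in 8 DFMO cells and 16 UMIs in 12 water cells, or 63.8 CPM (29.2 to 121) and 32.1 (18.3 to 52.1). Its levels in the 62 cells were 86.8 and 68.3 CPM. Its level in water was below cDC1 (135 CPM) and Ccr7+ dendritic cells (155), above monocytes (4.34), and C1q macrophages held 0 UMIs. In DFMO the interval of the ratio to cDC1 spanned 0 (log2 -0.75, -2.03 to 0.39), and in water it did not (log2 -2.08, -2.93 to -1.33). Zbtb46 was found in 12 of 77 cells, at 35.4 and 14.0 CPM, against 45.4 and 53.6 in cDC1 and 1.69 and 1.97 in monocytes. Without the deep cells it stood at 54.3 and 22.8 CPM.

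Cst3, the cystatin C gene that is abundant in cDC1, stood at 4217 CPM in DFMO and 4508 in water. In cDC1 it stood at 34543 and 48742 CPM and in monocytes at 3176 and 3539, so all 77 cells were far nearer to the monocyte level. The 62 cells held 5752 and 6828 CPM, against 3556 and 4008 in monocytes and 36821 and 50274 in cDC1 with tumour-list cells left out. The cDC1 factors were low as well. Irf8 stood at 163 and 132 CPM against 1920 and 2079 in cDC1, and Id2 at 70.9 and 86.2 against 1243 and 1780. Irf4, a factor of type 2 cells, gave a UMI in 7 of 77 cells, and at 1000 UMIs per cell it was found in 2.60% of them, beside 5.12% of B cells, which also express it. Klf4, another factor tied to type 2 cells and monocytes, stood at 298 and 237 CPM, against 57.8 and 43.5 in cDC1 and 405 and 205 in monocytes.

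Surface genes reported for type 2 dendritic cells were unevenly present. Of 26 genes of the type 2 list, 25 were in the files, and Esam, Clec4a4 and Cd2 had 0 UMIs. Cd7, an immunoglobulin-family receptor, stood at 411 CPM (312 to 531) in DFMO and 573 (509 to 644) in water, against at most 49.6 CPM in the other 4 myeloid populations. Klrd1, the CD94 receptor chain, stood at 262 and 317 CPM, against at most 69.8. Clec10a, a galactose lectin gene, stood at 106 and 112 CPM, against at most 41.5. Its neighbour Mgl2 was found in 4 cells only. Ifitm1, an interferon-induced membrane protein gene, stood at 475 and 782 CPM, against at most 246. Without the deep cells Cd7 stood at 629 and 1239 CPM, Klrd1 at 402 and 588, Clec10a at 163 and 223 and Ifitm1 at 727 and 1193.

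These genes marked some of the cells and not all. Among the 62 cells a UMI was found in 31 for Cd7, 31 for Klrd1, 32 for Clec10a, 29 for Ifitm1, 30 for Kmo and 18 for Flt3. After thinning every cell to 1000 UMIs, Cd7 was found in 32.5% of the 77 cells, in 0.150% of 1329 B cells, in 1.10% of 91 cDC1 and in 0.199% of 503 monocytes. Klrd1 was found in 26.0%, 0.752%, 6.59% and 0.398% of the same populations. Flt3 was found in 5.19% of the 77 at this depth (interval 1.43 to 12.8), against 0.301% of B cells and 7.69% of cDC1. In the 62 cells its share was 6.45% in the same random draw and 9.68% in another (3.63 to 19.9), so no order between them and cDC1 can be read from it. Before thinning the shares were 48.1% for Cd7, 51.9% for Klrd1 and 26.0% for Flt3.

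Monocyte genes were present together with the class II genes. Lyz2, the lysozyme gene of monocytes and macrophages, stood at 5570 CPM (5188 to 5974) in DFMO and 2448 (2312 to 2589) in water. Monocytes had 24836 and 21207 CPM, cDC1 116 and 106, and Ccr7+ dendritic cells 0 and 4.99. Ly6c2 stood at 631 and 573 CPM, against 3116 and 3283 in monocytes, which were chosen by it, and 277 and 307 in cDC1. Plac8 was found in 61 of the 62 cells and stood at 1708 and 2163 CPM in the 77, between monocytes (4486 and 4945) and cDC1 (545 and 1184). Ccr2, the receptor that guides monocytes and their progeny into tissue, stood at 390 and 202 CPM, against 566 and 492 in monocytes, 86.7 and 107 in cDC1 and 0 in Ccr7+ dendritic cells. Fcgr1, the CD64 gene, stood at 156 and 98.2 CPM, against 329 and 404 in monocytes and 4.13 and 24.3 in cDC1. The 62 cells held 7412 and 4309 CPM of Lyz2, 2453 and 4209 of Plac8, 575 and 387 of Ccr2 and 228 and 200.4 of Fcgr1.

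Other monocyte genes were low or at 0. Hp stood at 128 and 26.1 CPM, against 844 and 866 in monocytes, S100a8 and S100a9 were at 0 UMIs, and Chil3, Vcan and Thbs1 were at 0 in the 62 cells. The rule itself limited Arg1, which was at 0 UMIs, and the C1q genes, at most 1 UMI a cell. Of the macrophage genes it did not use, Ms4a7 was at 0 UMIs and Apoe stood at 14.2 and 50.1 CPM against 9167 and 14935 in C1q macrophages. Marker lists of other leukocytes were near 0 in summed level, those of T and B cells in part by the rule, which left out cells with Cd3 genes or Cd79a: neutrophil genes 7.09 and 4.01 CPM, T cell genes 7.09 and 28.1, and NK cell genes 7.09 and 10.0. B cell genes summed to 163 and 134 CPM, against 15666 in the DFMO B cells.

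**Figure D2:**
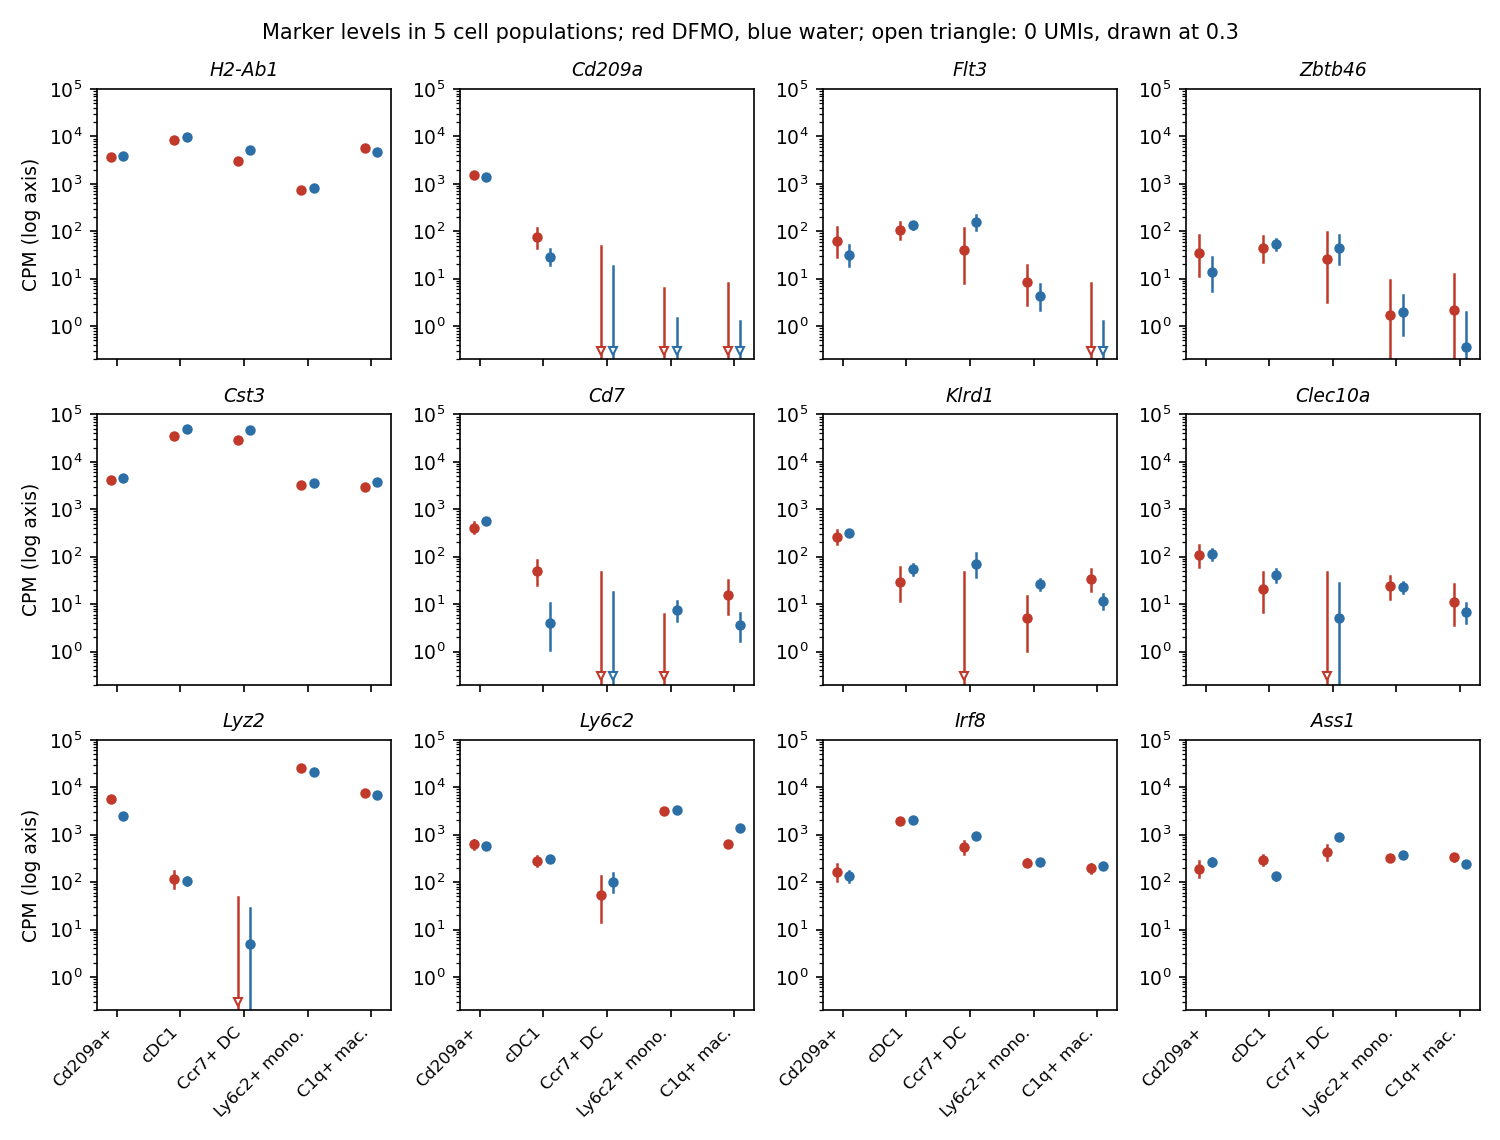
CPM (vertical, log axis) of 12 genes in Cd209a+ cells, cDC1, Ccr7+ dendritic cells, Ly6c2 monocytes and C1q macrophages; points are the summed level per library (red DFMO, blue water), lines are exact Poisson 95% intervals, and open triangles at 0.3 stand for 0 UMIs. Cd7 at 411 and 573 CPM is higher in the Cd209a+ cells than in the other 4 populations, while Lyz2 at 5570 and 2448 lies between cDC1 and monocytes.

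Against cDC1, 2117 genes were measured (at least 30 UMIs over both populations in each library and at least 50 CPM in 1 population). At least 2-fold higher in both libraries were 132 (6.24%), and at least 2-fold lower were 115 (5.43%). The highest included Lyz2 (log2 5.59 in DFMO and 4.53 in water), the inhibitory lectin gene Clec4a3 (4.10 and 4.82), the channel gene Tmem176b (4.02 and 5.34), Ifitm6 (3.98 and 4.43), the chemokine genes Ccl6 (3.88 and 4.25) and Ccl3 (3.87 and 3.94), and the selenium transporter gene Selenop (3.95 and 4.89). Cxcl10, the ligand of the T cell receptor CXCR3, stood at 1587 and 1233 CPM against 0 and 60.7 in cDC1. Fn1 was also among them (5.44 and 3.93). In the 62 cells it stood at 65.1 and 109 CPM against 716 and 724 in all 77. With tumour-list cells left out of cDC1 too, cDC1 held 0 and 7.56 CPM of Fn1. The log2 ratio was then 3.85 in water (2.59 to 5.31), and in DFMO the interval ran from 1.49 upward. Of 8 measured genes of the monocyte list, 5 were higher, with list medians of 3.75 and 3.17.

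Genes of cDC1 made up the other side of that comparison. Itgae (CD103), the double-stranded RNA receptor gene Tlr3, the scavenger receptor gene Cd36, Asb2, Cldn1, Ffar4, Sept3 and Serpinb6b were at 0 UMIs in the DFMO Cd209a+ cells. Qpct was lower by log2 -5.82 and -5.68. Of 8 measured genes of the cDC1 list, 7 were lower, 2 of the list's genes being used to choose the populations. Of 14 class II genes, 5 were lower and 1 higher, with medians of -0.72 and -0.99.

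Against Ccr7+ dendritic cells, 1210 genes were measured, 127 higher (10.5%) and 80 lower (6.61%), with only 6 and 20 cells behind the comparison. The higher genes again held Lyz2, Ifitm6, Ccl3, Clec4a3, Ccr2, Cd7 and Pdlim1, joined by Tgfbi, a matrix protein gene of monocytes, Ccl9 and Cd300a. All 10 of these were at 0 UMIs in the 6 DFMO Ccr7+ cells. The lower genes held Il12b (a subunit of interleukin 12 and 23), the chemokine gene Ccl17, and the survival genes Bcl2a1a and Bcl2a1b, which are near copies. Of 7 measured genes of the migratory list, 7 were lower.

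Against C1q macrophages, 2879 genes were measured, 105 higher (3.65%) and 232 lower (8.06%). Cd7 (log2 4.71 and 7.33), Ifitm6 (3.98 and 3.52), Klrd1 (2.96 and 4.80), Ifitm1 (3.20 and 2.94) and the tetraspanin gene Tspan13 (3.71 and 3.19) were among the 10 highest, with Pdlim1, Lsp1, Adgre5, Vrk1 and Tppp3. The 10 lowest were at 0 UMIs in the DFMO Cd209a+ cells, and held the complement receptor genes C3ar1 and C5ar1, the scavenger receptor gene Msr1, the cholesterol transporter gene Abca1 and Ms4a7. Of 12 measured pattern recognition receptor genes 9 were lower, of 7 Fc receptor genes 5, and of 15 lysosomal genes 6. Over all 77 cells class II genes stood close, with 0 of 11 higher, 2 lower and medians of -0.07 and 0.12.

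Against Ly6c2 monocytes, 3420 genes were measured, 61 higher (1.78%) and 194 lower (5.67%). Class II genes led with H2-Aa (log2 2.77 in DFMO and 2.67 in water), H2-Eb1 (2.56 and 2.54) and Cd74 (2.46 and 2.46), and of 10 measured genes of that list 5 were higher and 0 lower, with medians of 1.68 and 1.28. Cd7 was at 0 UMIs in DFMO monocytes and log2 6.26 higher in water, and Klrd1 was higher by log2 5.69 and 3.61. Tm4sf1, Csrp2, Cst6 and Ube2c were also among the 10 highest, but in the 62 cells Tm4sf1 and Cst6 were at 0 UMIs in DFMO and Csrp2 stood at 21.7 CPM there. The lower genes held the fungal and mycobacterial lectin receptor genes Clec4d and Clec4e (-4.90 and -6.39), the coagulation factor gene F10 (-5.01 and -6.46), Apoe (-5.66 and -4.76) and the neutrophil-type granule genes Mmp8 and Pglyrp1. Of 15 measured monocyte genes 9 were lower, with medians of -1.23 and -2.04.

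The 62 cells differed among themselves in Lyz2. At least 20 Lyz2 UMIs were found in 19 of them, 5 of 16 in DFMO (31.3%) and 14 of 46 in water (30.4%). In these 19 cells the median H2-Ab1 count was 19, against 35 in the other 43, at median depths of 5432 and 4893 UMIs. A Cd7 UMI was found in 4 of the 19 and in 27 of the 43, and a Klrd1 UMI in 4 and in 27. Ly6c2 was found in 16 of 19 and 22 of 43, Hp in 6 and 0, Flt3 in 6 and 12, and Zbtb46 in 1 and 9. The limit of 20 was set after seeing the counts and cuts a range: 48 of the 62 cells had at least 1 Lyz2 UMI.

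**Figure D3:**
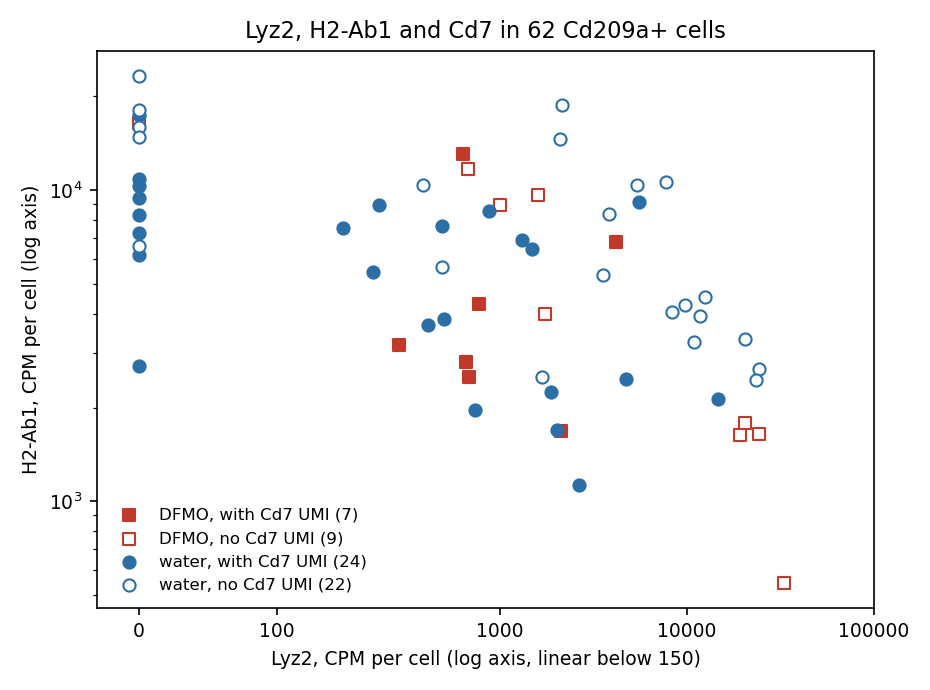
CPM per cell of Lyz2 (horizontal, log axis, linear below 150) against H2-Ab1 (vertical, log axis) in the 62 Cd209a+ cells; squares are DFMO cells and circles water cells, filled where the cell has a Cd7 UMI. Filled points gather at low Lyz2, where 27 of the 43 cells under 20 Lyz2 UMIs carry Cd7.

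Across the 62 cells the Spearman correlation of CPM was -0.55 between Lyz2 and H2-Ab1 (-0.70 in 16 DFMO cells and -0.50 in 46 water cells), and 0.45 between Cd7 and Klrd1. The cells of a library share its preparation, CPM of abundant genes share a total, and H2-Ab1 and Cd209a chose the cells, so these are descriptions. Cd209a itself ran with neither side strongly, at 0.12 with H2-Ab1 and 0.21 with Cd7.

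A small set of water cells transcribed interferon genes. Ifnb1, the interferon beta gene, gave 62 UMIs in 6 water Cd209a+ cells, with 5, 5, 7, 9, 11 and 25 UMIs. No Ifnb1 UMI was found in the 18 DFMO cells. Among 18 cells, 3 cells make up 16.7%, a floor that is not an interval end, so a smaller share could go unseen. The absence also does not limit cells that express Ifnb1 below detection. The series held 697 Ifnb1 UMIs in 129 cells. The share of water Cd209a+ cells with Ifnb1 was 10.2% (3.82 to 20.8), against 1.73% (1.42 to 2.09) of the other water cells and 0.359% (0.205 to 0.583) of the other DFMO cells. Over both libraries Ifnb1 was found in 6 of 77 Cd209a+ cells and in 39 of 560 C1q macrophages (6.96%, 5.00 to 9.40). It was found in 26 of 503 monocytes (5.17%, 3.40 to 7.48), in 1 of 91 cDC1 and in 0 of 1361 B cells. The 10.2% above is of water cells only and is not to be set beside these shares.

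Interferon alpha genes were found in 5 water Cd209a+ cells with 173 UMIs, and 4 of these 5 also held Ifnb1. The counts of single alpha genes cannot be taken at face value, since the family members are near copies, as the first 90 coding bases of Ifna1 (chr4:88850087-88850656, plus strand) and Ifna5 (chr4:88835525-88836094, plus strand) show; capitals would mark a difference, and there are none.
Ifna1: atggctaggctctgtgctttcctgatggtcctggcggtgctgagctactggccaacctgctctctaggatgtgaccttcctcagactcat
Ifna5: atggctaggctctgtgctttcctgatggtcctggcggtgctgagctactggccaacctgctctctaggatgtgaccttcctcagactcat
Over 567 coding bases 533 were identical (94.0%), and 88.3% of the 31-base words of Ifna1 occur in other genes. The 6 Ifnb1 cells also carried the chemokine gene Ccl4, at 25 to 98 UMIs, and 1 of them held 44 of the 79 Ccl5 UMIs of all Cd209a+ cells. Siglech and Ly6d, which mark plasmacytoid dendritic cells, were at 0 UMIs in all 6. Another 3 water cells carried at least 5 UMIs of Siglech and Ly6d together and held 0 Ifnb1 UMIs; 1 of the 3 was among the 15 deep cells.

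Between the libraries, 3321 genes had at least 30 UMIs over both and at least 50 CPM in 1. At least 2-fold higher in DFMO Cd209a+ cells were 118 (3.55%), and at least 2-fold lower 308 (9.27%), with a median log2 ratio of -0.07. The counting interval lay above 0 for 279 genes (8.40%) and below 0 for 347 (10.4%). In the 62 cells 1675 genes were measured, 39 of them at least 2-fold higher (2.33%) and 78 lower (4.66%), with intervals above 0 for 92 (5.49%) and below 0 for 101 (6.03%). With 1 pooled library per group these counts compare 2 libraries, and the treatment, the pool of mice and the preparation cannot be told apart. Every DFMO value rests on 18 cells or fewer.

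Hpgd, the enzyme gene that inactivates prostaglandin E2, had the highest ratio. It gave 40 UMIs in 10 of 18 DFMO cells (0 to 16 a cell, median 1) and 13 UMIs in 12 of 59 water cells (0 to 2 a cell, median 0). The log2 ratio was 3.44 (2.51 to 4.47), and 3.25 in the 62 cells. The ranges overlapped at 0 to 2 UMIs. In monocytes the log2 ratio of Hpgd between the libraries was 0.46 (-0.06 to 0.95). In cDC1 no water UMI of Hpgd was found, and the interval ran from 1.90 upward. In C1q macrophages no DFMO UMI was found, and the interval ran up to 1.05. The difference between the populations was not tested.

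Socs3, an inhibitor of cytokine signalling, gave 69 UMIs in 12 DFMO cells (0 to 20 a cell, median 2.5) and 70 in 36 water cells (0 to 4, median 1), a log2 ratio of 1.80 (1.30 to 2.30). Pdlim1, a cytoskeletal adaptor gene, was found in 15 of 18 and in 23 of 59 cells, with a log2 ratio of 1.82 (1.11 to 2.53). Both kept their direction in the 62 cells, at 1.52 and 1.54. Tagap (2.11) and the proton pump subunit gene Atp6v1b2 (1.76) were higher too, at 1.67 and 1.46 in the 62 cells. Cd14, the lipopolysaccharide co-receptor gene, gave 16 UMIs in 6 DFMO cells and 14 in 6 water cells, a log2 ratio of 2.01 (0.89 to 3.16).

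Some of the highest ratios rested on few cells. Cxcl9, a chemokine gene induced by interferon gamma, gave 75 UMIs in 4 DFMO cells and 39 in 6 water cells. Its log2 ratio was 2.77 (2.19 to 3.36), and 2 DFMO cells held 37 and 32 of the UMIs. Cxcl9 was also higher in DFMO in cDC1 (log2 1.495, 1.157 to 1.829), C1q macrophages (0.794, 0.628 to 0.957) and monocytes (0.458, 0.207 to 0.703). The difference between these populations and the Cd209a+ cells was not tested. For Hp (log2 2.29) the interval in the 62 cells spanned 0 (1.25, -0.17 to 2.67).

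Of the 10 lowest ratios, 8 were genes with 0 UMIs in DFMO, for which a fold is given against 3 UMIs in that library. This fold is not an interval end, and the intervals allow smaller differences. So counted, Ifna1 was 8.58-fold lower (interval up to log2 -2.77), Ifnb1 5.85-fold (up to -2.21) and Ifna4 4.43-fold (up to -1.79). All 3 came from the interferon cells above. Ccl5, a chemokine gene that attracts T cells, gave 79 UMIs in 11 water cells and was 7.45-fold lower (up to -2.56). It was also lower in DFMO in cDC1 (log2 -5.99, -11.3 to -3.50) and monocytes (-1.66, -1.98 to -1.37). In C1q macrophages Ccl5 was not lower (0.16, 0.05 to 0.27). Siglech (32 UMIs in 5 water cells) and Ly6d (30 UMIs in 3) were 3.02-fold and 2.83-fold lower (up to -1.21 and -1.11). Il1rl1 (49 UMIs in 8 cells), the chemokine gene Ccl7 (50 water UMIs, 1 DFMO UMI) and the mitosis gene Cenpf (48 and 1) were lower over all 77 cells, but had 0, 0 and 1 UMI in the 62 cells. Dync1h1, a dynein heavy chain gene, was 3.49-fold lower against 3 UMIs (interval up to log2 -1.43), with 37 UMIs in 18 water cells. In the 62 cells it had 6 water and 0 DFMO UMIs, too few to be measured.

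Other genes took their place among the lowest in the 62 cells. Ccl2, the chemokine gene that attracts monocytes through Ccr2, gave 1 UMI in 16 DFMO cells and 56 UMIs in 7 of 46 water cells. Of these 56 UMIs, 1 water cell held 43, and the next highest cell held 5. The log2 ratio was -4.55 (-9.88 to -2.02), and over all 77 cells it was -2.26 (-3.09 to -1.53). The fatty acid binding protein gene Fabp5 was lower by log2 -3.88 (-9.22 to -1.30), with a UMI in 1 DFMO and 16 water cells. AW112010, an interferon-induced transcript, had a log2 ratio of -3.39 in the 62 cells and 0.29 over all 77, since 1 deep DFMO cell held 60 of its 73 DFMO UMIs. Between all 77 and the 62 cells, 7 of the 10 highest genes, among them Hpgd, Cxcl9, Tagap, Pdlim1, Socs3 and Atp6v1b2, and 4 of the 10 lowest (Ccl5, Ifna1, Ifna4 and Ifnb1) were shared.

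**Figure D4:**
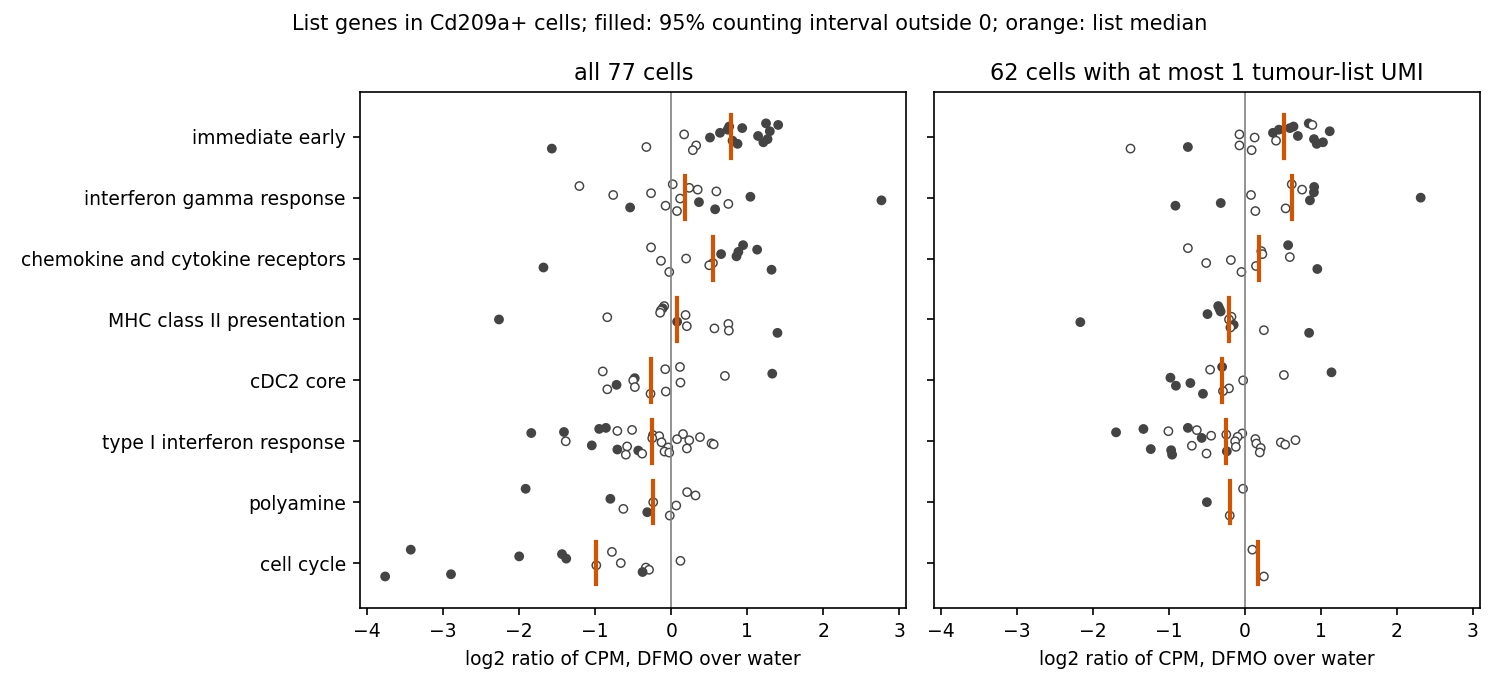
Log2 ratio of CPM, DFMO over water, for the measured genes of 8 lists in all 77 Cd209a+ cells (left) and in the 62 cells with at most 1 tumour-list UMI (right); each point is a gene, filled where its 95% counting interval lies outside 0, and the orange bar is the list median. The immediate early median is 0.78 on the left and 0.52 on the right, and the cell cycle median -0.99 and 0.18.

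Immediate early genes, which cells switch on within minutes of a stimulus, were mostly higher in DFMO. Of 18 measured genes 16 were higher and 2 lower, 13 with an interval above 0 and 1 below, and the list median was 0.78 beside -0.07 over all genes. Fos, a subunit of the AP-1 factor, gave 2 to 82 UMIs a cell (median 36.5) in DFMO and 0 to 66 (median 8) in water, a log2 ratio of 1.25 (1.10 to 1.39). Zfp36 (1.27), Egr1 (1.30), Klf2 (1.21), Atf3 (1.14), Junb (0.93) and Jun (0.76) ran the same way, and the heat shock gene Hspa1b the opposite way (-1.57). In the 62 cells 14 of 18 were higher, with a median of 0.52 and 10 intervals above 0. The summed CPM of the list had a median of 38768 per cell in DFMO (5673 to 57203) and 14387 in water (687 to 75634) in the 62 cells, with ranges that overlapped. In both libraries it was higher in cells with at least 20 Lyz2 UMIs (41502 and 27927 CPM) than in the others (27772 and 17359). The same 18 genes had a median of 0.39 in monocytes, 0.25 in cDC1 and -0.41 in C1q macrophages. Summed over the list, all Cd209a+ cells held 22430 CPM in DFMO and 11783 in water, and B cells 26844 and 14355.5. The sum was lower in DFMO in C1q macrophages (7791.5 and 10877 CPM) and in Ccr7+ dendritic cells (5765 and 7395). A higher level in DFMO was thus not confined to Cd209a+ cells, and the difference between the populations was not tested.

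Type I interferon response genes leaned the other way by little. Of 27 measured genes 7 were higher and 20 lower, 0 with an interval above 0 and 7 below, with a median of -0.25. The same genes had medians of -0.78 in cDC1, -0.12 in C1q macrophages and -0.07 in monocytes. Isg15 (log2 -0.86), Ifit3 (-1.41) and Bst2 (-0.71) were lower, and in the 62 cells at -0.75, -1.69 and -1.24. For Rsad2 the ratio turned from -1.04 to 0.53 in the 62 cells, and 1 cell held 52.5% of its UMIs. Requiring 2 Cd209a UMIs moved the list median to 0.01. Of 16 interferon gamma response genes 11 were higher and 5 lower, with a median of 0.18 and of 0.62 in the 62 cells; Irf1 (1.04, and 0.91 in the 62) and Cxcl10 (0.36 and 0.86) were higher and the immunoproteasome gene Psmb9 lower (-0.54 and -0.91).

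The count of class II genes depended on the deep cells. Of 13 measured genes in all 77 cells 7 were higher and 6 lower, 2 with an interval above 0 and 2 below, with a median of 0.08. In the 62 cells 2 of 11 were higher and 9 lower, 1 with an interval above 0 and 6 below, with a median of -0.21. H2-Ab1 had a log2 ratio of -0.09 (-0.23 to 0.05) and, in the 62 cells, of -0.35 (-0.50 to -0.20). The maturation gene Cd83 was higher (1.40, and 0.85 in the 62), and H2-Oa, an inhibitor of H2-DM, lower (-2.27, from 3 DFMO and 51 water UMIs). Of 13 type 2 list genes 4 were higher and 9 lower, with a median of -0.27. Cd7 had a ratio of -0.48 (-0.91 to -0.07) and -0.98 in the 62 cells, and Cd209a of 0.12 and -0.30. Lyz2 was higher in DFMO (1.19, and 0.78 in the 62 cells), where 1 cell held 240 UMIs, and Plac8 lower (-0.34, and -0.78 in the 62).

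Receptor and chemokine genes were mixed. Of 13 chemokine and cytokine receptor genes 9 were higher, with a median of 0.55 and of 0.18 in the 62 cells. Il10ra, the receptor chain of the restraining cytokine interleukin 10, had a ratio of 1.32 (0.76 to 1.87) and Ccr2 of 0.94 (0.44 to 1.43), at 0.95 and 0.57 in the 62 cells. Ccl4 was lower in summed level (-0.62, and -1.14 in the 62), but not in the share of cells, at 13 of 18 in DFMO and 34 of 59 in water. Its median was 2.5 UMIs a cell in DFMO and 3 in water. Of its 692 water UMIs, 3 of the Ifnb1 cells held 98, 85 and 74. For Il1b the interval spanned 0 (0.22, -0.15 to 0.57).

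The genes nearest to the drug's target were barely covered. Odc1, which encodes ornithine decarboxylase, gave 3 UMIs in 2 DFMO cells and 40 in 16 water cells, or 21.3 and 80.2 CPM, a log2 ratio of -1.92 (-4.25 to -0.26). In the 62 cells the levels were 10.9 and 22.8 CPM and the interval spanned 0 (-1.07, -6.63 to 2.09), so a difference was not detectable at this depth. Of 9 measured polyamine genes 3 were higher and 6 lower, with a median of -0.24. The spermidine synthase gene Srm had a ratio of -0.80, and -0.43 (-2.23 to 1.09) in the 62 cells. Eif5a, the gene of the factor that carries the polyamine-derived residue hypusine, stood at -0.32, and the antizyme gene Oaz1 at 0.21.

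Ass1, the argininosuccinate synthase gene of the urea cycle, stood at 191 CPM (126 to 278) in DFMO and 267 (223 to 316) in water. The log2 ratio was -0.48 (-1.13 to 0.13), and -0.91 (-1.58 to -0.28) in the 62 cells. It was found in 57 of the 77 cells, at 0 to 9 UMIs in DFMO and 0 to 11 in water, so the ranges overlapped. Across populations it did not set the 77 cells apart: Ccr7+ dendritic cells had 421 and 903 CPM, monocytes 319 and 366, C1q macrophages 337 and 245, and cDC1 289 and 132. The 62 cells held 282 and 528 CPM, in water above monocytes, macrophages and cDC1, and in both libraries under Ccr7+ dendritic cells. The comparators here kept their tumour-list cells. Of 5 measured urea cycle and arginine genes 2 were higher and 3 lower.

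Cell cycle genes were lower in DFMO in the whole set, with 12 of 13 measured genes lower and a median of -0.99. Of 13 Cd209a+ cells with a UMI of Mki67 or Top2a, 12 were among the 15 deep cells, and 12 of the 13 were water cells. In the 62 cells only 2 cell cycle genes were measured, with a median of 0.18.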

How the data were processed

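Raw UMI counts were deposited by the authors as 1 matrix (10720 cells, 17775 genes), with a table that names each cell's library. Cell Ranger 3.02, Scanpy 1.4.4 and mm10 are named per the submitters' processing notes; filters on cells ahead of deposit are not stated. Columns of other kinds (library names, gene identifiers) were deposited by the authors and used as labels. The sum of counts equalled the deposited total in 10720 cells.

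The Cd209a+ cells, comparator rules and 29 gene lists were chosen with earlier results of these data known. Of 432 list genes, 10 were not analysed here. Gene positions and coding sequences came from GENCODE M21 and matched 17743 gene identifiers. UMIs were summed per population and library and scaled to CPM over all genes, with exact Poisson intervals; ratios had exact conditional binomial intervals and shares Clopper-Pearson intervals, at 95%. Genes with 0 UMIs in 1 library have no ratio and stayed out of medians. Named genes were list genes and the 10 highest and 10 lowest ratios per comparison, with at least 30 UMIs and 50 CPM, without receptor segments and, between libraries, with an interval outside 0. Some genes that met this rule are not reported here. Doublets were called by Scrublet (assumed rate 0.05) and kept. The intervals were tested on simulated Poisson counts, the model they assume. The simulation held no clumping of UMIs by cell, so it cannot show how the intervals hold for these cells. The software was Python 3.11.15, numpy 2.4.6, scipy 1.17.1, pandas 2.3.3, scanpy 1.11.5, matplotlib 3.10.9, and R 4.3.3 with edgeR 4.0.16 for TMM library sizes.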

Additional observations from a re-analysis of the deposited data

How the results depend on the processing

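No paired analysis was possible because DFMO and water were 1 library each. For the same reason no spread between mice was measured, and 18 DFMO cells limit every DFMO value. Of 110 alternative values of the main results 99 stayed in range and 11 moved; in range means within 1.5 times the main count for counts of genes, and inside the main value's counting interval for shares and levels, which is wide for few cells. Requiring 2 Cd209a UMIs left 31 genes higher than in Ly6c2 monocytes in place of 61, and moved the type I interferon list median from -0.25 to 0.013 and the cell cycle median from -0.99 to -2.12. Leaving out tumour-list cells, an alternative chosen after seeing the data, gave a water share of 1.43% of the remaining cells in place of 0.944%, Flt3 at 68.3 CPM in place of 32.1 in water, 39 genes higher and 78 lower in DFMO in place of 118 and 308, and a cell cycle median of 0.18 in place of -0.99. With at least 10 UMIs and no CPM minimum 495 genes were higher and 1068 lower (6720 measured), with at least 100 UMIs 19 and 57 (1068 measured; cell cycle median -0.38), and with every cell thinned to 1000 UMIs 12 and 21 (396 measured), where the cell cycle median was 0.33. Fewer or more genes were measured under these settings, so the counts differ by construction. Leaving out Scrublet calls, TMM sizes and weighting cells alike left the main results in that range. Stricter complement and Arg1 limits picked the same 77 cells, which held at most 1 C1q UMI and 0 Arg1 UMIs. Asking for at least 500 genes per cell removed none of them, since each had at least 752. These 2 settings could not change the choice of cells, so their values, counted among the 99, are no check of it. Thinning to 2000 UMIs before the rule gave shares of 0.620% in DFMO and 0.793% in water, closer together than 0.403% and 0.944%. Weighting cells alike moved single marker levels, among them Cd7 in water to 960.8 CPM from 573. Depth limits Flt3, Zbtb46, Irf4 and Odc1, each at a few UMIs in DFMO.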
